A study of Mus musculus with 8 samples.

Results

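The genes described here are the 4 mouse Notch receptors (Notch1, Notch2, Notch3 and Notch4), the 5 canonical Notch ligands (Jag1, Jag2, Dll1, Dll3 and Dll4) and Nrarp, a feedback inhibitor of the pathway. They were chosen by name: every non-control probe that the array files label with 1 of these 10 symbols was taken, which gave 12 of the 41174 probes on the array, on 30 spots. Notch1 and Jag1 each had a pair of probes, called A and B here, and every other gene had 1 probe. All 12 probes were marked well above background on all 8 arrays, and no spot of theirs was saturated or marked as faulty.

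Notch receptors are membrane proteins that are cut after a ligand on a neighbouring cell binds them. The freed intracellular domain enters the nucleus, joins the DNA-binding protein RBPJ and switches on target genes, among them the Hes and Hey repressors and Nrarp. In the embryonic pancreas, Notch signalling is known for holding progenitor cells back from endocrine differentiation, and Dll1 is a known ligand of the cells that start that differentiation. Sox9 is a transcription factor of the pancreatic progenitors.

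RNA came from dorsal pancreatic epithelia that were dissected by hand from mouse embryos at e12.5, with 3 embryos pooled in each sample. The 4 wild-type samples were Sox9fl/fl, with both Sox9 alleles flanked by recombination sites and no Cre, on a mixed FVB/N x C57Bl/6J background. The 4 mutant samples were Sox9fl/fl; Pdx1-Cre littermates, in which the Pdx1 promoter, active in the early pancreatic epithelium, drives the recombinase that deletes Sox9; the Cre line was on C57Bl/6J. No sample carried the Cre without the floxed alleles, so that loss of Sox9 and presence of Cre cannot be told apart. The series text counts 3 biological replicates a genotype against the 4 arrays deposited, and the p-values measure only the spread between these pools.

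The 75th percentile of signal, which stands for the brightness of an array, lay between 372 and 640 over the 8 arrays, and 59.4% to 77.7% of spots were well above background. The brightest Sox9 probe lay between 1.82 and 3.01 in the wild-type arrays and between -1.79 and 0.77 in the mutant arrays on the log2 scale used throughout, on which 0 is the 75th percentile of that array. Its difference, mutant minus wild-type, was -2.70 (SE 0.515, limma, adjusted p = 0.0291), in the direction of the labels. The other Sox9 probes differed by -3.27 (adjusted p = 0.0231) and by -1.44, which did not pass the test (adjusted p = 0.0748), and on none of the 3 did the genotypes overlap. Where 4 values of a genotype are listed, they follow the replicate numbers 1 to 4. The arrays lay on 3 slides, each of which held both genotypes, and differences within slide 1, slide 2 and slide 3 are given below where a result rests on them. Over 3 Y-linked genes, the median log2 value was -6.76, -4.86, -0.82 and -6.55 in the wild-type pools and between -1.37 and 0.11 in the mutant arrays, so the sex of the pooled embryos moved in part with genotype, and its part in the results was not tested.

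Of the 12 probes, those of Dll1 and Dll3 fell in the mutant arrays, none rose, and the other 10 did not pass the test (limma with Benjamini-Hochberg adjustment over all 27389 probes kept, threshold 0.05, two-sided). Over all kept probes, 2.88% were called lower and 0.873% were called higher, 3.75% in all. The median difference of the 12 probes was -0.21, against -0.0018 over all kept probes, with 9 probes below 0 and 3 above. The arrays of the genotypes did not overlap for 4 of the 12 probes, lower for Dll1, Dll3 and Nrarp and higher for Notch3, and such separation was seen for 13.4% of all kept probes, 7.36% lower and 6.06% higher.

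**Figure D1:**
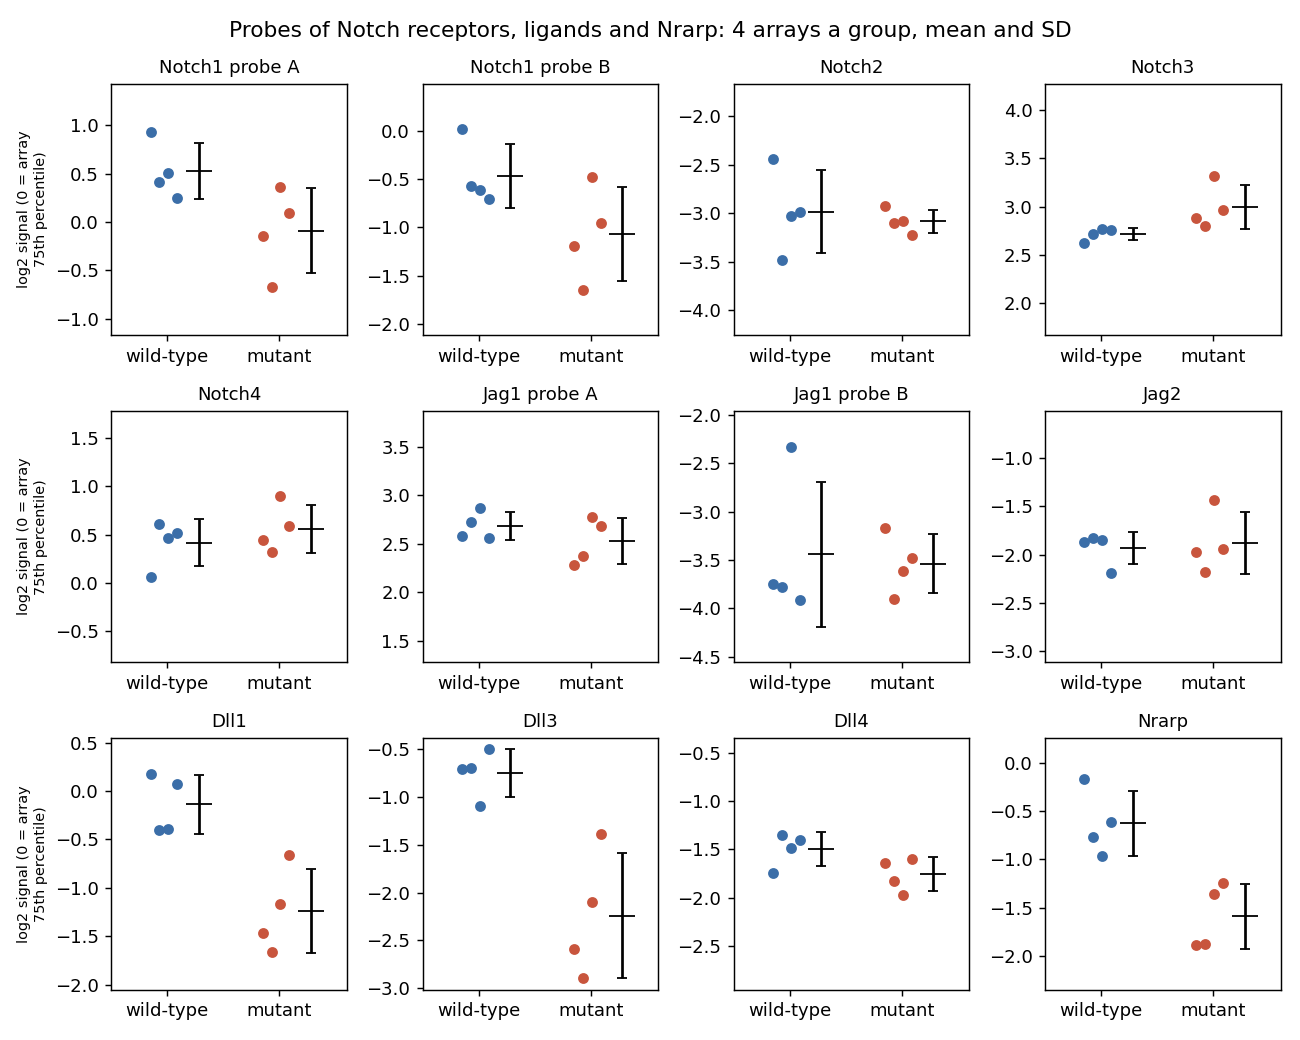
Log2 signal of each of the 12 probes, where 0 is the 75th percentile of the array; points are the arrays, in replicate order from left to right, and bars show the mean ± SD of 4 wild-type (blue) and 4 mutant (red) arrays. The panels of Dll1, Dll3 and Nrarp show mutant arrays below every wild-type array, the Notch3 panel shows them above, and in the other panels the groups overlap.

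Dll1 is a ligand that activates Notch receptors on the neighbouring cell. Its probe targets chr17:15072622-15072681 on the minus strand (mm8) and stood on 10 spots of each array. The first 30 of its 60 bases are shown because the Dll1 result rests on this 1 sequence:

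Dll1 probe: gattactatgagccagtctttccttgaact

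The processed signal of Dll1 was 419, 469, 402 and 677 in the wild-type pools and 223, 165, 184 and 395 in the mutant pools. Scaled to the array, the log2 values were 0.17, -0.41, -0.39 and 0.08 in the wild-type pools and -1.47, -1.66, -1.17 and -0.66 in the mutant pools. Every mutant array lay below every wild-type array, with mutant replicate 4 the nearest to them. The mean was -0.14 ± 0.30 (SD, n = 4) in the wild-type and -1.24 ± 0.44 (SD, n = 4) in the mutant arrays, a difference of -1.10 (SE 0.243), which is 2.15-fold lower (limma, adjusted p = 0.0482). An exact permutation test, two-sided over all 70 ways to split the arrays 4 and 4, gave p = 0.0286, the smallest it can give. Within an array, the 10 spots of the probe had an SD between 0.061 and 0.095 on the log2 scale, well under the spread between arrays. The Dll1 difference was -0.76, -0.67 and -1.79 on slides 1, 2 and 3, where its sign follows from the lack of overlap. The call was close to the threshold: of 8 fits with 1 array removed, it held in the 1 without mutant replicate 4 (adjusted p = 0.0190) and was lost in each of the others (highest adjusted p = 0.134, without wild-type replicate 4).

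Dll3 is a divergent ligand that stays largely inside the cell and does not activate receptors on neighbouring cells. Its probe targets chr7:28002504-28002563 on the minus strand (mm8), on 1 spot of each array, and its first 30 of 60 bases are given because it carried the largest difference among the 12 probes:

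Dll3 probe: gaaagggctttattgtacatattgcttatt

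The processed signal of Dll3 was 228, 383, 247 and 452 in the wild-type pools and 103, 70.4, 96.1 and 238 in the mutant pools. The log2 values were -0.71, -0.69, -1.09 and -0.50 in the wild-type pools and -2.58, -2.89, -2.10 and -1.39 in the mutant pools. As for Dll1, the groups did not overlap and mutant replicate 4 was the highest of the mutant arrays. The mean was -0.75 ± 0.25 (SD, n = 4) against -2.24 ± 0.65 (SD, n = 4), a difference of -1.49 (SE 0.310), which is 2.81-fold lower (limma, adjusted p = 0.0390; exact permutation p = 0.0286). On slides 1, 2 and 3 the Dll3 difference was -1.41, -0.90 and -2.29. Among the fits without 1 array, the Dll3 call was kept only without mutant replicate 4 (adjusted p = 0.00770), and without wild-type replicate 4 its adjusted p was 0.115, the highest of the 8. With slide as a fixed block, neither Dll1 (adjusted p = 0.0821) nor Dll3 (adjusted p = 0.0648) passed the test, at differences of -1.10 and -1.54, and Dll1 missed it with quantile normalization (adjusted p = 0.0537) and median centring (adjusted p = 0.0555). The Dll3 difference was smaller with another background correction, normexp (-1.05), and in the value table that the authors deposited (-1.09). Dll3 passed the test in both (limma, adjusted p = 0.0169), and its size thus depended on the processing.

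Dll4, the third Delta ligand, is known for its role in blood vessels. Its processed signal was 111, 243, 188 and 242 in the wild-type pools and 198, 147, 105 and 206 in the mutant pools. The groups overlapped after scaling, and the log2 difference of -0.26 (SE 0.138) did not pass the test (limma, adjusted p = 0.410; exact permutation p = 0.0857). The probe targets chr2:119026484-119026543 on the plus strand (mm8).

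The Jagged ligands, membrane proteins with an added cysteine-rich region, did not pass the test on any probe. Jag1 probe A (chr2:136773138-136773197, minus strand, mm8) had a processed signal of 2219, 4113, 3844 and 3784 in the wild-type pools and 2988, 2698, 2836 and 4008 in the mutant pools. Its log2 difference was -0.16 (SE 0.149, limma, adjusted p = 0.747). Jag1 probe B (chr2:136774647-136774706, minus strand, mm8) was dim, between 27.6 and 105 in the wild-type arrays and between 33.8 and 68.3 in the mutant arrays, and its difference was -0.10 (SE 0.353, limma, adjusted p = 0.954). The value of 105, in wild-type replicate 3, stood apart from the other wild-type arrays, which lay between 27.6 and 45.1. Jag2 (chr12:113356484-113356543, minus strand, mm8) lay between 102 and 174 in the wild-type and between 115 and 162 in the mutant arrays, with a log2 difference of 0.052 (SE 0.177, limma, adjusted p = 0.950). The SE was widest for Jag1 probe B, the signs of Jag1 probe B and Jag2 turned in some other settings, and a p that misses the threshold does not show that the levels were equal.

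Notch1, a receptor of many progenitor tissues, had a lower mean in the mutant arrays on both probes, and neither passed the test. Probe A (chr2:26281261-26281319) and probe B (chr2:26281319-26281378) target neighbouring stretches of the minus strand (mm8) that share 1 base at their join, so they are no independent readings of the gene. The processed signal of probe A, on 10 spots, was 707, 825, 746 and 763 in the wild-type pools and 558, 328, 532 and 663 in the mutant pools. Its log2 values were 0.93, 0.41, 0.50 and 0.25 in the wild-type pools and -0.14, -0.67, 0.37 and 0.09 in the mutant pools. Mutant replicate 3 lay inside the wild-type range and the other mutant arrays below it. The difference was -0.61 (SE 0.240) for probe A (limma, adjusted p = 0.236; exact permutation p = 0.0571) and -0.60 (SE 0.265) for probe B (limma, adjusted p = 0.307; exact permutation p = 0.114). On slides 1, 2 and 3 the difference was -0.046, -0.53 and -1.26 for probe A and 0.093, -0.45 and -1.31 for probe B, so that on slide 1 the probes differed in sign. For probe B, mutant replicate 3 at -0.48 lay above wild-type replicates 2, 3 and 4. The spots of probe A had an SD of at most 0.075 within an array.

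Notch2 (chr3:98232687-98232746, plus strand, mm8), a receptor often expressed beside Notch1, was dim, between 55.4 and 81.0 in the wild-type arrays and between 48.7 and 80.7 in the mutant arrays. Its log2 difference of -0.10 (SE 0.209) did not pass the test (limma, adjusted p = 0.911) and its sign turned in 4 other settings. Notch4 (chr17:34196231-34196290, plus strand, mm8), a receptor of endothelial cells, had a processed signal of 388, 949, 727 and 917 in the wild-type pools and 835, 653, 768 and 939 in the mutant pools. The groups overlapped, and the log2 difference of 0.15 (SE 0.172, limma, adjusted p = 0.811) turned its sign in 1 other setting.

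Notch3, a receptor known from the mural cells of vessels, was the only probe of the 12 whose mutant arrays all lay above the wild-type arrays after scaling. Its probe targets chr17:31849609-31849668 on the minus strand (mm8), and its first 30 bases are shown for that reason:

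Notch3 probe: gcctaatagaaatgtttttaggctgttttt

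The processed signal of Notch3 was 2288, 4079, 3572 and 4340 in the wild-type pools and 4541, 3637, 4114 and 4877 in the mutant pools, ranges that overlap before scaling. The log2 values were 2.62, 2.72, 2.76 and 2.76 in the wild-type pools and 2.88, 2.80, 3.32 and 2.97 in the mutant pools. The lowest mutant array stood only a little above the highest wild-type array. The difference of 0.28 (SE 0.135) did not pass the test over all probes (limma, adjusted p = 0.364; exact permutation p = 0.0286). It was 0.60 on slide 1, where the mutant array was replicate 3, and 0.16 and 0.11 on slides 2 and 3.

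Nrarp is a small ankyrin-repeat protein that is switched on by Notch signalling and in turn dampens it by promoting loss of the intracellular domain. Its probe targets chr2:25004527-25004586 on the plus strand (mm8), and the first 30 of its bases are given because the value lies at the threshold:

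Nrarp probe: ttttttgaatcttggttatgaacccaattt

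The processed signal of Nrarp was 331, 364, 270 and 417 in the wild-type pools and 167, 142, 161 and 263 in the mutant pools. The log2 values were -0.17, -0.77, -0.96 and -0.62 in the wild-type pools and -1.88, -1.87, -1.36 and -1.25 in the mutant pools. The groups did not overlap, and the highest mutant array was again replicate 4. The mean was -0.63 ± 0.34 (SD, n = 4) against -1.59 ± 0.34 (SD, n = 4), a difference of -0.96 (SE 0.221), which is 1.95-fold lower and missed the threshold over all probes (limma, adjusted p = 0.0553; exact permutation p = 0.0286). The differences on slides 1, 2 and 3 were -0.59, -0.60 and -1.48. The test was passed in 7 of 21 other settings, among them the value table that the authors deposited (difference -0.76, adjusted p = 0.0439) and 1 probe a gene (adjusted p = 0.0455).

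**Figure D2:**
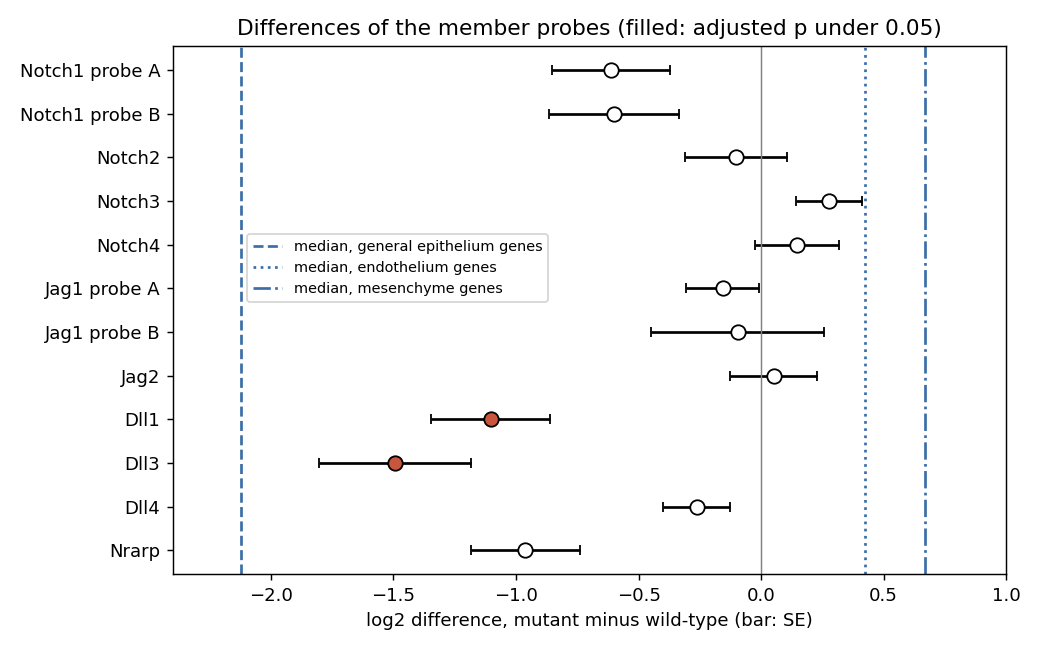
Log2 difference, mutant minus wild-type, of the 12 probes with its SE from limma; filled points had an adjusted p under 0.05, and vertical lines mark the median differences of the general epithelial, endothelial and mesenchymal marker lists. Dll3 at -1.49 and Dll1 at -1.10 are the filled points, and all 12 probes lie to the right of the epithelial median of -2.12. This position is not particular to them, since 97.4% of all kept probes were called higher relative to the epithelial genes.

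Marker genes of other cell types moved with the genotype in the same arrays. Of 23 kept of 24 general epithelial genes, 19 were called lower and none higher, with a median difference of -2.12. Background for these counts, 1 probe a gene, was 3.41% of 18379 genes called lower and 1.1% called higher. The brightest epithelial genes were the keratins Krt18, with a difference of -0.98, and Krt8, with -1.56. The summed signal of this list, in units of each array's 75th percentile, was 123 to 170 in the wild-type and 47.7 to 71.3 in the mutant arrays; Ovol1 was not kept, and 3 of the kept genes were not above background on every array. All 10 pancreatic progenitor genes were called lower (median -2.72; Foxa2 -1.97, Cpa1 -2.10), with a summed signal of 86.0 to 170 in the wild-type and 13.6 to 42.1 in the mutant arrays. Of these genes, 1 was not above background on every array. Of 9 endocrine progenitor genes, 5 were called lower (median -1.67; Nkx2-2 -3.03, Isl1 0.15). The median of this list was -0.76 with normexp background correction and -0.80 in the value table that the authors deposited, and Insm1, Pax4 and Neurod1 were above background on 2 of the 4 mutant arrays. Neurog3, which encodes the factor at the start of the endocrine lineage, fell by 2.68 (SE 0.228, limma, adjusted p = 0.00681). In bulk RNA such as this, fewer cells of a type and less RNA per cell cannot be told apart.

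The lists of supporting tissue lay on the other side of 0. All 18 endothelial genes had differences above 0 (median 0.42; Ramp2 0.62, Egfl7 0.24), of which 1, Emcn, was called higher, and their summed signal was 64.4 to 71.3 in the wild-type and 78.1 to 112 in the mutant arrays. Of 10 mural genes 3 were called higher (median 0.47; Kcnj8 0.79, Pdgfrb 0.44), with a summed signal of 77.8 to 99.5 against 113 to 178. Of 15 mesenchymal genes 2 were called higher (median 0.67; Col1a2 0.67, Col1a1 0.47), with 291 to 376 against 425 to 564. The lists of mesothelium (2 of 7 called higher, median 0.84; Wt1 0.998, Aldh1a2 0.84) and macrophages (3 of 11, median 0.63; Csf1r 0.81, C1qc 0.64) lay higher too, and no erythroid gene of 9 passed (median 0.45; Hba-a1 0.50, Hbb-y 0.14). Of 9 kept of 11 neural crest, glia and neuron genes, 4 were called lower (median -0.78; Erbb3 -2.36, Tubb3 -0.58). Notch3 and Notch4 had differences of 0.28 and 0.15 beside the mural and endothelial medians of 0.47 and 0.42. Dll4, also known from vessels, lay on the other side of 0, at -0.26. All 9 probes below 0, those of Dll1, Dll3 and Nrarp among them, lay between 0 and the epithelial median. Lying above that median is not particular to them, since 97.4% of all kept probes were called higher relative to the epithelial genes. The part of tissue composition in each of these values was not tested.

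Array by array, the median of the epithelial list was 1.26, 0.54, 0.52 and 1.06 in the wild-type pools and -1.23, -1.52, -1.51 and -0.49 in the mutant pools. Mutant replicate 4 had the highest epithelial median of the mutant arrays and also their highest Dll1, Dll3 and Nrarp. Mutant replicate 2 had the lowest epithelial median, Dll1 and Dll3, while Nrarp was lowest in mutant replicate 1. Mutant replicate 3 went the other way. Its epithelial median lay below that of mutant replicate 1, but its Dll1, Dll3 and Nrarp lay above. When all values were taken relative to this median, 11 of the 12 probes were called higher in the mutant arrays, but so were 97.4% of all kept probes, and 0.157% were called lower. On that scale Dll1 differed by 0.93 (SE 0.443, limma, adjusted p = 0.0361), Nrarp by 1.08 (SE 0.443, limma, adjusted p = 0.0158) and Dll3, the only probe not called, by 0.54 (SE 0.443, limma, adjusted p = 0.223). The fit gave all 12 probes this same SE, so the SE and adjusted p do not measure the spread of the single probe. Dll3 was called too with normexp background correction (0.65, adjusted p = 0.0324) and in the value table that the authors deposited (0.66, adjusted p = 0.0285), which made 12 of 12 probes. Of the fits without 1 array, the Dll1 call on this scale held in those without wild-type replicate 3 or mutant replicate 4 and was lost in the others (highest adjusted p = 0.0995, without mutant replicate 3), the Nrarp call was lost without mutant replicate 3 (adjusted p = 0.0675), and 9 to 11 of the 12 probes were called. Given the share of all probes called, nothing particular to these genes is read from this scale.

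**Figure D3:**
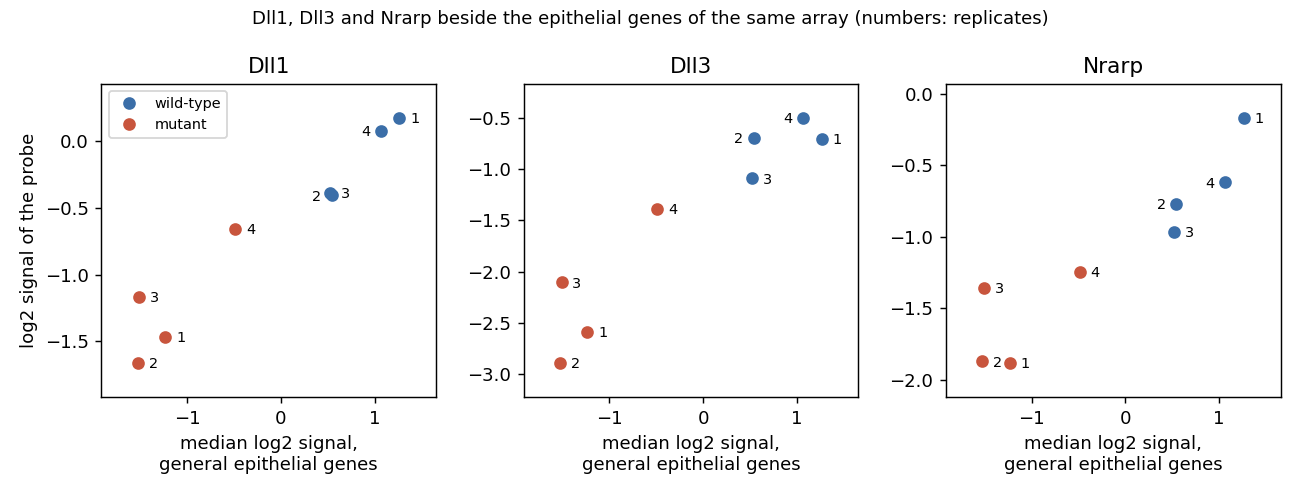
Log2 signal of Dll1, Dll3 and Nrarp in each array against the median log2 signal of the 23 general epithelial genes in the same array (both with 0 at the array's 75th percentile); blue points are wild-type arrays, red points mutant arrays, and the numbers are replicates. The mutant array with the highest epithelial median, replicate 4 at -0.49, also has the highest mutant value of each of these genes. Mutant replicate 3, at -1.51, has a lower epithelial median than mutant replicate 1, at -1.23, but higher values of these genes.

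The rest of the pathway was described from lists of its parts, with 1 probe a gene. Of 54 other pathway genes kept, 2 fell, none rose and the median difference was 0.054, against 0.017 over all 18379 genes. These counts lie near the background of 3.41% lower and 1.1% higher given above.

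The Hes and Hey genes encode the repressors that carry the Notch signal, and none of the 7 kept of 8 passed the test (median -0.081; Hes7 was not kept). Hes6, which differs from its relatives in favouring differentiation, had the largest difference of the list, -0.49 (SE 0.185, limma, adjusted p = 0.217). Hes1, named after its values were seen because it is the main Notch effector of the pancreas, lay between -0.68 and -0.42 in the wild-type arrays and between -1.39 and -0.70 in the mutant arrays. The Hes1 groups were narrowly separated, at -0.683 for the lowest wild-type and -0.701 for the highest mutant array. Those of Hes6 did not overlap either, and 7.36% of all kept probes were separated in this direction. The Hes1 difference of -0.40 (SE 0.172) did not pass the test (limma, adjusted p = 0.285). Hes5, also named after its values were seen, lay at 1.70 in wild-type replicate 4 and 0.44 in mutant replicate 4, and between -2.30 and -1.51 in the other 6 arrays. These 2 arrays lay on different slides and belong to different genotypes, and the Hes5 difference was -0.081 (SE 0.937, limma, adjusted p = 0.987).

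In the nuclear complex that RBPJ forms with its co-activators and co-repressors, 1 of 10 genes passed the test (median 0.049). This was Rbpjl, a paralog of Rbpj that serves the acinar factor PTF1 and does not carry the Notch signal, which fell by 3.05 (SE 0.640, limma, adjusted p = 0.0406). Its values lay between 0.35 and 2.25 in the wild-type and between -2.97 and -0.20 in the mutant arrays, which do not overlap. Rbpj itself had a difference of 0.047 (SE 0.307, limma, adjusted p = 0.975). The Rbpjl call was kept in 2 of 8 fits without 1 array, those without wild-type replicate 2 or mutant replicate 4, and lost in the others (highest adjusted p = 0.115, without wild-type replicate 4).

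Dtx4, which encodes a ubiquitin ligase of the Deltex family that acts on Notch, was the 1 gene of 15 for trafficking and turnover that passed (median 0.15). Its values were 2.25, 2.41, 2.31 and 2.58 in the wild-type pools and 1.33, 1.32, 1.22 and 1.61 in the mutant pools. The groups stood well apart, with a difference of -1.01 (SE 0.130), which is 2.02-fold lower (limma, adjusted p = 0.0105). The Dtx4 call held in all 21 other settings, with a highest adjusted p of 0.0449.

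No gene passed in the remaining lists. Among 7 genes that add or extend sugars on the Notch receptors (median 0.0013), the largest difference was that of Gxylt2, 0.92 (SE 0.328, limma, adjusted p = 0.189). Among 9 kept of 10 genes of the proteases that cut the receptors (median -0.048; Aph1c was not kept), it was that of Adam10, the ligand-dependent sheddase, -0.24 (SE 0.121, limma, adjusted p = 0.381). Among 6 non-canonical ligands (median 0.26), it was that of Dner, 0.69 (SE 0.183, limma, adjusted p = 0.0834). Dner values in the mutant arrays, -1.59 to -1.10, lay narrowly above those of the wild-type arrays, -2.37 to -1.66. Dlk1, of the same list, and some other pathway genes were separated in this direction too, as were 6.06% of all kept probes.

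**Figure D4:**
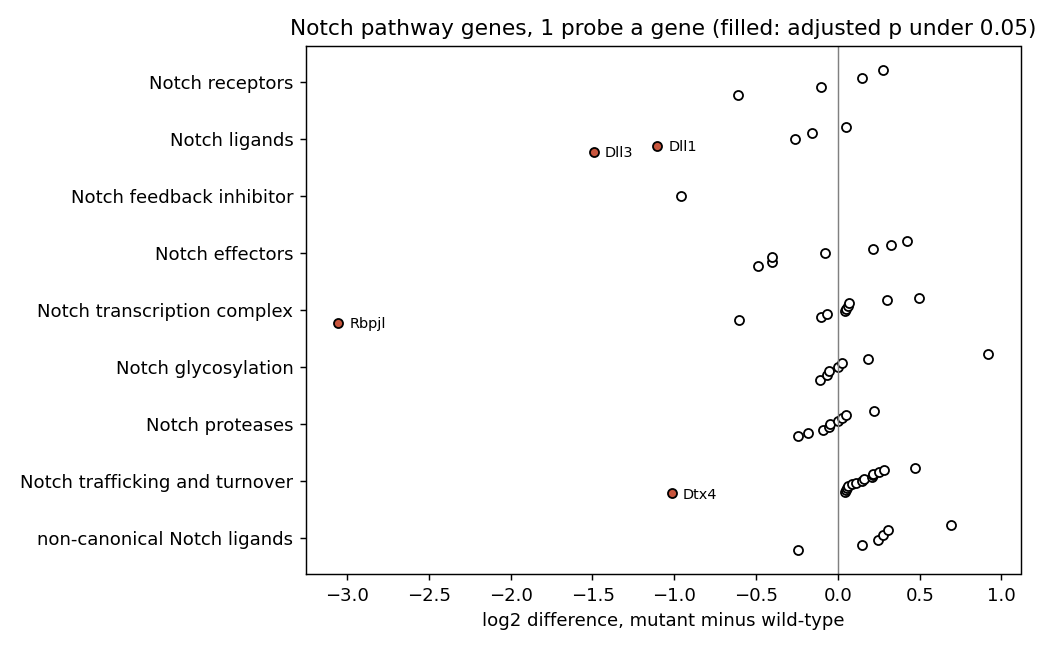
Log2 difference, mutant minus wild-type, of each kept Notch pathway gene with 1 probe a gene, by list; filled and named points had an adjusted p under 0.05 in limma over all probes. The named genes are Dll3, Dll1, Rbpjl at -3.05 and Dtx4 at -1.01, and most other points lie near 0.

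The genes with profiles most like those of Dll3, Dll1 and Nrarp were ranked by Pearson's r of log2 values over the 8 arrays, among 13510 genes above background on all of them. Both genotypes enter this r, so genes that differ between the genotypes score high, and all values share the same arrays and scaling. For Dll3 they included Nrcam (r = 0.987), Ide (r = 0.982), Prr36 (r = 0.981) and Celf3 (r = 0.974). For Dll1 they were Celf3 (r = 0.994), Bmp7, Akap9 and Nlk (r = 0.988 for each) and Rbpjl (r = 0.985). For Nrarp they were Mthfd1 (r = 0.992), Slc7a1 (r = 0.988), Lrrc8d (r = 0.983), Ang6 (r = 0.981) and Nlk (r = 0.980); Ang6 belongs to a family of near-identical genes and its assignment is uncertain. Celf3 was shared by the lists of Dll1 and Dll3, and Nlk by those of Dll1 and Nrarp. The differences of these genes between genotypes ranged in size: Celf3 differed by -1.58 (limma, adjusted p = 0.0247), while Nlk differed by -0.38 (limma, adjusted p = 0.112).

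The promoters of Dll1 and Dll3 are shown because these genes were called lower together. The sequences are the 250 bases before the RefSeq start site (GRCm38.p6), for Dll1 at chr17:15376933-15377182 on the minus strand and for Dll3 at chr7:28301786-28302035 on the minus strand, and capitals mark matches to the motifs searched:

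Dll1 promoter: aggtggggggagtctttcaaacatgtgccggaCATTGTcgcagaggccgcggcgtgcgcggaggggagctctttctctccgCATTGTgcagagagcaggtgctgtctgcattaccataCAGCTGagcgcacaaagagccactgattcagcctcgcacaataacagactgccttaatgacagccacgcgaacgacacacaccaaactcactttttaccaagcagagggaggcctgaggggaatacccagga

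Dll3 promoter: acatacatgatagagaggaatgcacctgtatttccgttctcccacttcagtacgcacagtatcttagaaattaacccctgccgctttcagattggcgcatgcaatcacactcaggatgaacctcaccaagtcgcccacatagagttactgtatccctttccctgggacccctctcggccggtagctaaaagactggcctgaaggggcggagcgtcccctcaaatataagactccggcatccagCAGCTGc

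The motifs were searched on both strands from 250 bases before to 50 bases after the start site, in 11 windows that matched all 10 genes, Dll1 having a pair of start sites. The window of the other Dll1 start site, chr17:15375774-15376073, held no match to any of the motifs and is not printed. The SOX core was ACAATG, the sequence preferred by SOX factors. The E-box was CAGCTG, bound by basic helix-loop-helix factors, which reads the same on both strands. The RBPJ core was TGGGAA, the centre of the site bound by RBPJ. No match of one overlapped a match of another. The SOX core was in 3 of the 11 windows, against 12.6% of all 32851 RefSeq windows: in Dll1, beginning at positions -218 and -169 from the start, in Jag1 and in Notch4. The E-box was in 4 of the 11 windows, against 16.3% of all windows: in Dll1, in Dll3, in Jag1 and in Nrarp. The RBPJ core was in 0 of the 11 windows, against 25.6% of all windows. The capitals in Dll1 thus show SOX cores, read on the other strand, and an E-box, and the capitals in Dll3 an E-box; a match is a description of the letters in this window and says nothing of binding.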

How the data were processed

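RNA of 8 pools was hybridised to 1-colour Agilent arrays, 4 a genotype. Per the file headers, the authors extracted spot values with Agilent Feature Extraction 9.5.3.1; the deposited processed signal is a background-subtracted intensity, not normalized between arrays. The deposited flags (control, background, saturation, outliers) are other than measurements. The value table that the authors deposited gives linear intensity values whose distribution is the same on each array; its background method is not given in the sources used here, it has no direction of its own, and it served as an alternative. The submitters' processing notes name limma, without a version.

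Control spots (1639 of 45018) and spots marked as non-uniform or outliers were left out. Log2 processed signals had each array's 75th percentile subtracted and were averaged over a probe's spots. A probe was kept when well above background on at least 4 arrays (27389 of 41174). Genotypes were compared with lmFit and eBayes (limma 3.58.1, R 4.3.3), with Benjamini-Hochberg adjustment over all kept probes, and single probes with a two-sided exact permutation test. The script was tested on simulated data. Tables and plots used Python 3.11.15, pandas 2.3.3, numpy 2.4.6 and matplotlib 3.10.9. Symbols came from RefSeq accessions for 23374 probes, from RefSeq symbols for 6733 and synonyms for 2919, and from the array file for 8148. For lists, the brightest kept probe stood for a gene. Named were all member probes, list genes past the threshold or, in pathway lists with none, the gene with the largest difference, the 2 brightest genes of each marker list, and the 5 most similar genes of the 3 members with the smallest adjusted p, of which 1 is not reported here. Members, lists and naming rule were chosen with earlier results of these data known. The alternatives were other background, scaling, filter, flag, slide, weighting and probe choices, a replicate block, and leaving out each array; the number of arrays limits the precision. Probe positions are on mm8, and exons were not assigned.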

Additional observations from a re-analysis of the deposited data

Results flagged for a closer look

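Within the 4 arrays of a genotype, 3 values stood apart from the rest among 44 groups of 4 tested, those of the 12 probes and of 10 named pathway genes; chance marks about 1 group in 20. Jag1 probe B lay at -2.33 in wild-type replicate 3, with the other wild-type arrays between -3.91 and -3.75. Jag2 lay at -2.19 in wild-type replicate 4, with the others between -1.87 and -1.83. Hes5 lay at 1.70 in wild-type replicate 4, with the others between -2.30 and -1.68. Because Hes5 was named after its values were seen, its mark cannot be set against this chance rate.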

How the results depend on the processing

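Dll1 kept its direction in all 21 other settings (-1.30 to -0.90) and its call in 9, Dll3 (-1.78 to -1.05) in 11, and Nrarp, lower in all 21 (-1.08 to -0.75), passed in 7. Dtx4 passed in 21 and Rbpjl in 13. Where calls changed, the cause was not tested, except that fewer arrays or more probes tested were part of the setting.

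Of the 12 probes, 2 were called lower; 1, Dll3, was with quantile normalization or median centring, 0 without a filter on dim probes, with slide as a fixed block or with the replicate block, and 0 to 2 in the fits without 1 array. Over all probes, 788 were called lower and 239 higher. Lower calls numbered 375 without the filter, 305 with the replicate block, 1255 with array weights and 265 to 723 without 1 array. Higher calls numbered 574 in the authors' table, 34 without the filter, 382 for probes above background on all 8 arrays, 376 and 542 with slide as a fixed and a random block, 21 with the replicate block, 733 with array weights and 23 to 249 without 1 array. Higher calls made up 23.3% of all calls in the fit reported and 39.1% in the authors' table. Of other pathway genes, 2 were called lower and none higher; 1 was lower without the filter or with slide as a fixed block, 1 higher in the authors' table or with array weights, and 1 to 2 lower without 1 array.

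The median of the general epithelial list was -1.62 with normexp background correction and -1.68 in the authors' table. Some uncalled differences changed sign. Notch2 was 0.058 in the authors' table, 0.076 with quantile normalization, 0.096 with array weights and 0.080 without wild-type replicate 1 (-0.27 to 0.080 over the fits without 1 array). Jag1 probe B was 0.00090 with quantile normalization, 0.26 with array weights, 0.28 without wild-type replicate 3 and 0.024 without mutant replicate 2. Notch4 was -0.020 with array weights, and Jag2 -0.032 without wild-type replicate 4 and -0.098 without mutant replicate 3 (-0.098 to 0.15 over those fits).

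Same-numbered arrays did not deviate together (correlations -0.38, -0.25, 0.0050 and 0.12), so the numbers were not taken as pairs; with the replicate block Dll1 had an adjusted p of 0.0860, Dll3 of 0.0828 and Nrarp of 0.177 (limma).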
